A study of Mus musculus with 48 samples.

Results

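The cytosolic ribosomal protein genes encode the proteins of the small (40S) and large (60S) subunits of the ribosome that translates nuclear mRNAs. They were taken from the count table by symbol, as Rpl or Rps followed by a number, with a closing a, x or l or a further digit allowed, together with Rplp0, Rplp1, Rplp2 and Rpsa, and symbols of annotated pseudogenes were left out. This gave 88 of the 49568 genes of the table: 31 proteins of the 40S subunit, 43 of the 60S subunit, the 3 proteins of the P stalk, and 11 paralogs and extra copies such as Rpl7l1, Rpl22l1 and Rps27l. The naming rule itself uses symbols only.

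A ribosome holds 1 copy of nearly every one of these proteins, so growing cells make them in matched amounts. Their mRNAs are short and abundant, and most begin with a run of pyrimidines, the 5′ terminal oligopyrimidine (TOP) motif, through which mTOR signalling and the RNA-binding protein Larp1 control their translation and stability. Myc raises their transcription in many cells, and several of the proteins act outside the ribosome: Rpl5 and Rpl11 bind Mdm2 when ribosome assembly fails, and Rpl13a joins the IFN-γ-activated inhibitor of translation (GAIT) complex in myeloid cells.

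The samples were RAW264.7 cells, a single mouse macrophage line. Cells were kept for 72 h with PBS, with 1 of 3 peptides (LE, SE or PE, each at 100 µg/ml, each matching the third allelic hypervariable region as coded by different alleles of human HLA-DRB1), with IFN-γ at 5 ng/ml, or with a peptide and IFN-γ together. Each of the 8 groups had 3 letter-labelled libraries, which carry all the comparisons here, and 3 more libraries labelled HLA. The study describes all replicates of a group together as biological and from independent experiments. The labels do not say which libraries belong to which experiment, so the 3 letter-labelled ones of a group may come from a single experiment. Nor do the labels say which libraries were separate cultures. If some were not, the p-values would partly measure technical spread between libraries.

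By 20 IFN-γ target genes, 0 of the 24 letter-labelled libraries and 12 of the 24 HLA-labelled libraries went against their IFN-γ label, and the HLA-labelled libraries were therefore left out of every comparison. Depth was 16.5 to 26.9 M counts (M for mega) per letter-labelled library. Of 8 macrophage markers, 7 reached 1 CPM (counts per 1000000 counts of the library), and Mertk did not. None of the 3 markers each of T cells, B cells, epithelial cells and fibroblasts reached 1 CPM, with summed levels of at most 0.816 CPM.

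Of the 88 genes, 83 passed the filter on low counts in every comparison. Rps4l and Rpl39l had no count in any letter-labelled library, and Rpl10l and Rps12l1 had at most 1 and 2 counts. Rpl24, a 60S protein gene, had at most 12 counts in a library. For each gene 1 transcript, that of length nearest the gene's median, was read in 100-base windows. For Rpl24, 80.1% of these windows also occur in a transcript of another gene. Because only uniquely aligned reads had been counted, such sharing can lower a gene's count. It was common in this family: 34 of 88 genes had over 50% of their windows in another gene's transcript, 9 had none, and the median was 37.5%. Among genes described below the shared part was 98.4% for Rps27, 91.6% for Rpl10, 66.1% for Rps10, 55.2% for Rpl13a, 46.8% for Rpl12, 40.6% for Rpl22l1, 21.4% for Rpl37a, 1.68% for Rpl7l1 and 0% for Rps27l. The effect of this sharing on single values was not tested.

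The start of a ribosomal protein mRNA carries the feature this family is known for, so the first bases are shown for genes that moved with the family and for several that departed from it. Each line gives 10 bases before and 20 bases from the annotated start (RefSeq, GRCm38.p6), 5′ to 3′ on the gene's strand, and capitals mark the longest unbroken run of C and T letters where it reached 5.
Rps10 (chr17:27635225-27635254, minus strand): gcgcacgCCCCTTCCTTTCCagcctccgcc
Rpl38 (chr11:114668570-114668599, plus strand): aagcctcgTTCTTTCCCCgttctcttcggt
Rps27 (chr3:90213629-90213658, minus strand): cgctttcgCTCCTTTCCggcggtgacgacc
Rpl12 (chr2:32961702-32961731, plus strand): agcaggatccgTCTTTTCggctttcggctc
Rps27l (chr9:66946076-66946105, plus strand): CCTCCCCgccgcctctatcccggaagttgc
Rpl22l1 (chr3:28805498-28805527, plus strand): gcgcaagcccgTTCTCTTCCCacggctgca
Rpl37a (chr1:72711250-72711279, plus strand): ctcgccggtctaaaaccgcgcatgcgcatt
Rpl7l1 (chr17:46782637-46782666, minus strand): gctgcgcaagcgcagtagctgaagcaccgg
Rps10, Rpl38, Rps27, Rpl12 and Rpl22l1 had a run that spans or lies just after the start, and that of Rps27l lies before it. A further annotated start of Rps27l, not shown, had no run of 5. The shown starts of Rpl37a and Rpl7l1 had no run of 5 on this strand. A missing run was not particular to genes that departed from the family: Rps3 and Rpl10, which rose with PE, had none in their start windows. The sequence table matched 63 of the 88 genes. Of these, 42 (66.7%) had a run of at least 5 C or T letters that began in the first 20 bases of an annotated start window. The share was 44.7% of 9348 other tested genes and 43.4% of all 27025 matched genes. Runs that began later in a window were not counted, such as those of Rpl11 and Rplp0. A run is a description of these letters only.

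Levels spanned a wide range within the family. Averaged over the 24 letter-labelled libraries, the 83 tested genes lay between 0.729 and 3655 CPM, with a median of 878.3 CPM. On the scale of CPM per kilobase of transcript, the highest levels were 4185 for Rplp1, a P-stalk protein that helps recruit elongation factors, 3537 for Rps27, 3338 for Rps24 and 2750 for Rps12, all of the 40S subunit except Rplp1. The lowest level, 0.605, was that of Rpl3l, the paralog of Rpl3 known from heart and skeletal muscle. Other paralogs and copies followed, with 0.986 for Rps3a3, 1.87 for Rpl6l, 11.7 for Rps3a2 and 67.1 for Rpl7l1.

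The family took a changing share of the library. In PBS it held 6.72%, 7.58% and 7.19% of all counts (7.16% ± 0.428, SD, n = 3). The peptides without IFN-γ had higher shares, at 8.10% ± 0.437 with LE, 8.60% ± 0.225 with SE and 9.02% ± 0.386 with PE (n = 3 each), and no library of these groups overlapped with PBS. IFN-γ alone gave 6.96% ± 0.296, a mean within the range of the PBS libraries, with its lowest library (6.64%) below that range. With IFN-γ the order of the peptides was kept at lower levels: 6.55% ± 0.317 with LE, 7.34% ± 0.197 with SE and 8.12% ± 0.406 with PE. PE + IFN-γ lay above all IFN-γ libraries, whereas LE + IFN-γ and SE + IFN-γ overlapped with them. With 3 libraries against 3, the exact two-sided permutation test cannot give a p under 0.1, so the shares are given without a test. PE had the highest mean level for 72 of the 83 genes and LE + IFN-γ the lowest for 64. A share is relative to all counts of its library and can also change when other mRNAs change. The amount of RNA per cell was not measured.

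**Figure D1:**
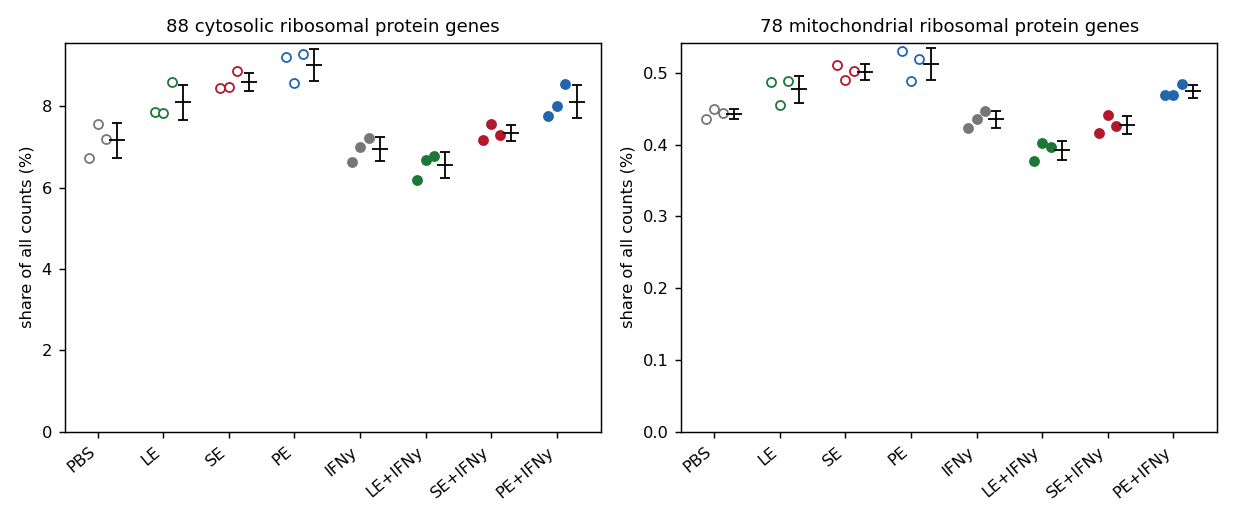
Share of all counts (%) taken by the cytosolic ribosomal protein genes in each of the 8 groups; points are the 3 libraries of a group and bars are mean ± SD, filled points had IFN-γ (IFNy in axis labels), and the right panel gives the mitochondrial ribosomal protein genes. PE had the highest mean (9.02%) and LE + IFN-γ the lowest (6.55%).

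Peptides were first compared with PBS in the absence of IFN-γ, which asks what each peptide did on its own. Ribosomal protein mRNAs rose by small amounts with SE and PE. Rps10, a 40S protein near the mRNA entry channel, measured 398, 395 and 389.6 CPM in PBS, 520.4, 497 and 511 with SE and 553, 525 and 563 with PE. All libraries of both peptide groups lay above those of PBS, and the log2 fold change was 0.44 (standard error 0.0709, adjusted p = 0.00541) with SE and 0.56 (standard error 0.071, adjusted p = 0.00299) with PE (edgeR quasi-likelihood test, Benjamini-Hochberg over all genes tested). Rpl38, a 60S protein known in mice for its part in the translation of Hox mRNAs, measured 305, 334 and 303 CPM in PBS and 449.6, 393 and 437 with PE, with a log2 fold change of 0.53 (standard error 0.0833, adjusted p = 0.00506).

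With PE, 75 of the 83 genes were called higher and 0 lower, where 9.98% of all genes tested were called higher and 9.98% lower. They were all 31 tested 40S genes, 40 of 42 60S genes, all 3 P-stalk genes and 1 of 7 paralogs and copies, Rpl22l1. The median log2 fold change was 0.43, and -0.0034 over all genes. Over the 16 comparisons reported here the median of all genes tested lay between -0.0235 and 0.011. Among called genes the largest after Rps10 were Rps12, a protein of the 40S beak (0.55), Rpl11, which carries 5S rRNA into the ribosome with Rpl5 (0.53), and Rpl35, a protein at the exit of the peptide tunnel (0.53). With SE, 70 were called higher and 0 lower (background 7.77% and 6.58%), with a median of 0.34. Among called genes Rpl38 was first (0.46, standard error 0.0833, adjusted p = 0.00771), followed by Rps10, Rpl36 and Rps12 (0.44 for the last). Rpl3l had larger values with SE (0.81, standard error 0.324, adjusted p = 0.101) and PE (0.81, standard error 0.324, adjusted p = 0.0891) at its low level and was not called. Rpl5, Rpl6, Rpl7, Rpl7a, Rpl10a, Rpl26 and Rpl35a were the 60S genes not called with SE.

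With LE, edgeR called 0 genes in either direction (background 0.0242% higher and 0.0% lower). All 83 log2 fold changes were positive with a median of 0.23, 65 had an unadjusted p under 0.05, DESeq2 called 3, a single fit of the 8 groups 1, and edgeR without the filter on low counts 21. Rps10 measured 461, 436 and 504 CPM with LE, all above PBS, at a log2 fold change of 0.29 (standard error 0.0709, adjusted p = 0.201). Groups did not overlap, all 3 LE libraries above all 3 PBS libraries, for 48 of the 83 genes and 8.49% of all genes. The differences between peptides without IFN-γ were not tested.

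The counts for SE and PE moved with the libraries used and with transcript length. Leaving out a replicate number removed 1 library from each group and left 2. Without the libraries numbered 1, edgeR called 0 genes for SE and 0 for PE. Without those numbered 3 they were 0 for SE and 40 for PE, and without those numbered 2 they were 60 and 75. Median log2 fold changes without numbers 1, 2 and 3 were 0.304, 0.419 and 0.308 for SE. For PE they were 0.362, 0.536 and 0.396. When a per-library trend of expression with transcript length was removed, 5 genes passed the threshold with SE and 26 with PE. Over all 12420 genes tested, 233 were then called higher with SE and 432 with PE. The 5 with SE were Rps15a, Rps20, Rpl22, Rpsa and Rpl12, with lengths of 1242 to 5130 bases against a family median of 780. Removal raised the values of Rps15a (0.36 to 0.54) and Rps20 (0.40 to 0.50) and lowered those of Rpl22, Rpsa and Rpl12. Lengths were medians over annotated transcripts, and whether they match the transcripts expressed here was not tested.

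**Figure D2:**
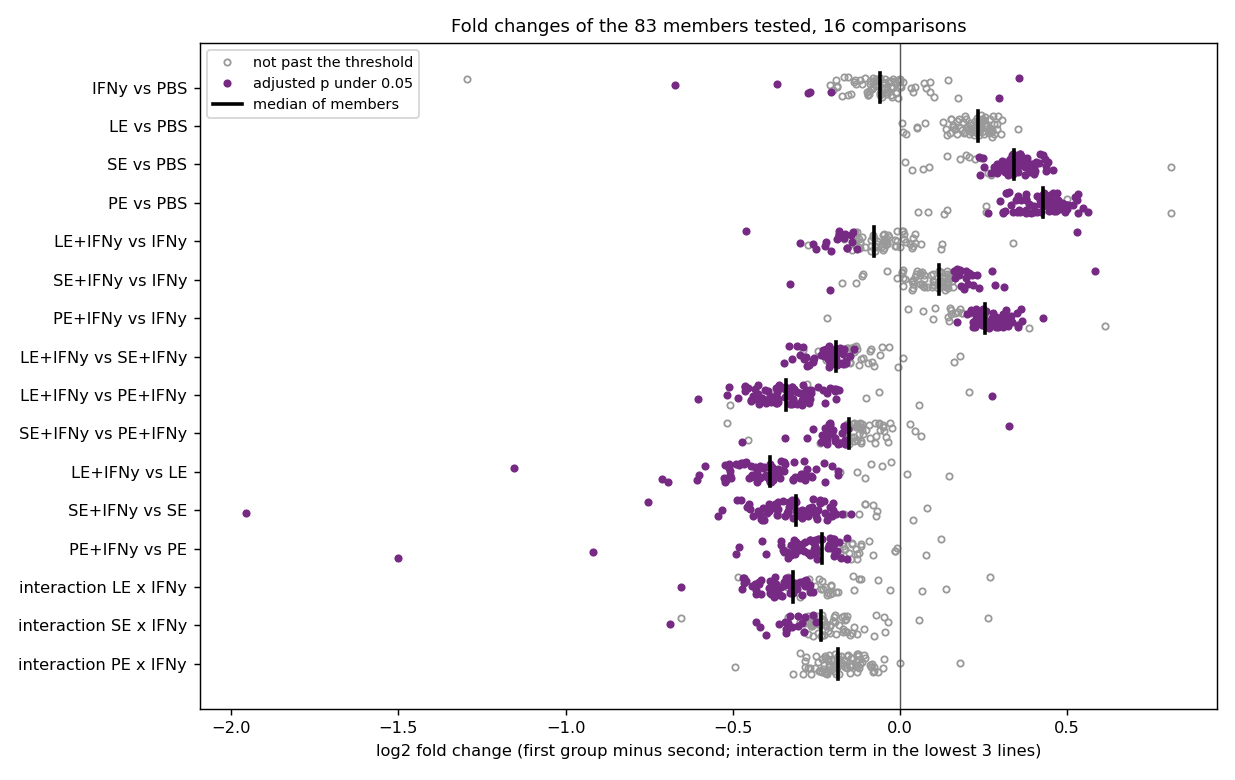
Log2 fold changes of the 83 tested genes in each comparison, with 1 point per gene, filled where the adjusted p was under 0.05, and black bars at the medians. The medians were 0.23, 0.34 and 0.43 for LE, SE and PE against PBS and -0.39, -0.31 and -0.23 for LE, SE and PE with IFN-γ against the same peptide without it.

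IFN-γ alone was then compared with PBS. Few genes of the family passed the threshold: 2 were called higher and 5 lower, against 20.2% and 19.5% of all genes, with a median log2 fold change of -0.059. The genes called did different jobs in the ribosome. Rpl12, a protein at the base of the stalk, measured 1500, 1620 and 1575 CPM in PBS and 1935, 1927 and 2075 with IFN-γ, with no overlap and a log2 fold change of 0.36 (standard error 0.078, adjusted p = 0.00369). Rps20, a protein of the 40S head, was the other gene called higher (0.30, standard error 0.0801, adjusted p = 0.0121). Rpl37a, a zinc-binding 60S protein, measured 485, 551 and 487 CPM in PBS and 302, 301 and 342 with IFN-γ. It had the largest decrease of the called genes and was the only one past 1.5-fold, at -0.67 (standard error 0.0861, adjusted p = 9.02e-05), with every IFN-γ library below every PBS library.

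Rps21 (-0.37, standard error 0.0807, adjusted p = 0.00369) and Rps25 (-0.21, standard error 0.0751, adjusted p = 0.0474), the latter known for its use in initiation on viral internal ribosome entry sites, were the 40S genes that fell. The 2 others were paralogs: Rpl7l1 (-0.28, standard error 0.0649, adjusted p = 0.00547) and Rpl22l1 (-0.27, standard error 0.079, adjusted p = 0.0182), whereas their partners Rpl7 (-0.12, standard error 0.0679, adjusted p = 0.182) and Rpl22 (-0.033, standard error 0.078, adjusted p = 0.774) were not called. Without 1 replicate number the counts were 3 to 5 in all, and with the length trend removed they were 5 higher and 4 lower. Over all 12242 genes tested, that removal gave 2635 higher and 2397 lower.

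Peptide plus IFN-γ against IFN-γ alone, the first of the study's models, asks what a peptide adds to the cytokine. The balance of calls differed between the peptides. LE + IFN-γ had 1 gene called higher and 19 lower (background 25.7% and 24.8%; median -0.077). SE + IFN-γ had 19 higher and 2 lower (background 16.7% and 16.6%; median 0.115). PE + IFN-γ had 63 higher and 0 lower (background 5.43% and 4.58%; median 0.25). The 19 genes lower with LE and the 19 higher with SE were each 22.9% of the 83, near the background for LE and a little above it for SE.

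Rpl5, which forms a complex with 5S rRNA and Rpl11, fell with LE + IFN-γ: it measured 759, 775 and 769 CPM with IFN-γ and 616, 639 and 648 with LE + IFN-γ, a log2 fold change of -0.26 (standard error 0.0482, adjusted p = 0.000221). Rpl13a, the GAIT protein, measured 75.9, 86.2 and 87 CPM and 64.9, 70.7 and 71.5 CPM in the same groups (-0.25, standard error 0.0671, adjusted p = 0.00446). In neither gene did the groups overlap. Rpl27, of the 60S subunit, followed (-0.23, standard error 0.0637, adjusted p = 0.00656). The count lower with LE was 6 to 12 without 1 replicate number, 8 with a single fit of the 8 groups and 5 with the length trend removed, where 12 were higher. With that removal 3264 of all 12720 genes tested were higher and 3215 lower.

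With SE + IFN-γ the largest increases after Rpl37a were those of Rpl41, a very short 60S peptide (0.31, standard error 0.0756, adjusted p = 0.00394), Rps16, whose tail reaches toward the peptidyl tRNA (0.28, standard error 0.0595, adjusted p = 0.00127), Rps2, a protein of the mRNA entry (0.27, standard error 0.0599, adjusted p = 0.00171), and Rps21 (0.24, standard error 0.0741, adjusted p = 0.0199). Removing the length trend gave 14 higher and 3 lower, a single fit of the 8 groups 10 and 2. The removal gave 2307 higher and 2230 lower over all 12720 genes tested. Leaving out 1 replicate number gave 4 to 21 higher.

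With PE + IFN-γ the 63 genes were 28 of 31 40S, 33 of 42 60S and 2 of 3 P-stalk genes, with no paralog or copy. Rpl36, a 60S protein, measured 429, 436 and 449.6 CPM with IFN-γ and 547, 573 and 614 with PE + IFN-γ, without overlap (0.43, standard error 0.0673, adjusted p = 0.00353). Rps15, a protein of the decoding region, was also among the largest increases (0.35). Rps6, the S6 kinase substrate, was not called (0.19, standard error 0.0612, adjusted p = 0.0596). Removing the length trend gave 12 genes, a single fit of the 8 groups 20, and leaving out the libraries numbered 1 or 3 gave 0 against 54 without those numbered 2. The median was 0.24 without those numbered 1 and 0.248 without those numbered 3. Over all 12720 genes tested, removing the trend gave 353 higher and 275 lower.

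Peptides were also compared with each other under IFN-γ. LE + IFN-γ lay below the others. Against PE + IFN-γ, 76 genes were lower and 1, Rpl37a, higher (background 29.9% lower and 30.0% higher; median -0.34). Against SE + IFN-γ, 51 were lower and 0 higher (background 16.5% and 19.0%; median -0.19). SE + IFN-γ was below PE + IFN-γ for 33 genes and above for 1, again Rpl37a (background 17.1% and 17.3%; median -0.15). Rps10 measured 312, 339.6 and 349 CPM with LE + IFN-γ, 403, 431 and 427 with SE + IFN-γ and 427, 428 and 474 with PE + IFN-γ. LE lay below both others in every library, and the log2 difference from SE was -0.35 (standard error 0.0587, adjusted p = 0.00033).

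Rpl18, a 60S protein, differed between LE and PE under IFN-γ without overlap, at 809, 929 and 883 CPM against 1127, 1252 and 1340 CPM (-0.52, standard error 0.0711, adjusted p = 6.99e-06). With the length trend removed, 34 genes were lower for LE against PE, 9 for LE against SE and 8 for SE against PE. In that order 3, 0 and 2 were higher. Over all 12720 genes tested 3638, 2035 and 2172 were then lower. The family's shares for LE against SE and SE against PE were thus below those over all genes. Without 1 replicate number, LE against PE gave 72 to 77 lower genes, LE against SE 13 to 44, and SE against PE 2 to 29, the 2 being without the libraries numbered 3. A single fit of the 8 groups gave 26 lower genes for LE against SE and 11 for SE against PE.

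The other model compared peptide plus IFN-γ with the same peptide alone. Here the family fell with all 3 peptides: 75 genes with LE (background 32.7% lower and 33.2% higher; median -0.39), 73 with SE (28.8% and 28.7%; median -0.31) and 56 with PE (24.5% and 25.4%; median -0.23), with 0 called higher in each. Rpl38 measured 356, 352 and 407 CPM with LE and 245, 241 and 259 with LE + IFN-γ (-0.61, standard error 0.0775, adjusted p = 7.28e-07). It fell with SE (-0.49, standard error 0.0772, adjusted p = 1.78e-05) and PE (-0.40, standard error 0.0771, adjusted p = 0.000202) too. All 3 LE + IFN-γ libraries lay below all 3 LE libraries for 76 of the 83 genes and 33.6% of all genes.

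Rps21 fell with each peptide (-0.58, -0.54 and -0.49 for LE, SE and PE). Rpl12, Rps20 and Rps2 were not called with any of the 3. Rpl3l had the largest log2 fold changes, -1.15, -1.96 and -1.50 with LE, SE and PE, but from very low levels, 1.02, 1.46 and 1.5 CPM with SE and 0.164, 0.569 and 0.313 with SE + IFN-γ. With the length trend removed, the counts lower were 32, 29 and 41 for LE, SE and PE, and 5, 3 and 1 were higher. Over all 12947 genes tested 4161, 3642 and 3273 were then lower and 4151, 3701 and 3259 higher. Leaving out 1 replicate number gave 68 to 71, 50 to 67 and 18 to 60, the 18 without the libraries numbered 1.

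The interaction of peptide and IFN-γ tests whether a peptide's effect differs with and without the cytokine. For LE, 50 genes had a lower effect under IFN-γ and 0 a higher one (background 19.6% and 18.8%; median -0.32). For SE it was 19 and 0 (background 10.3% and 9.46%; median -0.24). For PE edgeR called 0 in either direction (background 0.0% and 0.0%), with 24 genes at an unadjusted p under 0.05 and 0 called by DESeq2. The counts with the length trend removed were 11 lower for LE and 3 for SE, with 2 higher in each. Over all 13096 genes tested 2457 were then lower and 2160 higher for LE, and 1289 and 1093 for SE. The family's shares called lower were below these. Leaving out 1 replicate number gave 17 to 44 calls for LE and 1 to 13 for SE.

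A few genes departed from the family. Rpl37a fell with IFN-γ and rose again when a peptide was added, more with LE or SE than with PE. It measured 411, 442 and 496 CPM with LE + IFN-γ, 459, 473 and 458 with SE + IFN-γ and 353, 362 and 391 with PE + IFN-γ. Relative to IFN-γ alone the log2 fold changes were 0.53 (standard error 0.073, adjusted p = 1.04e-05) with LE and 0.58 (standard error 0.073, adjusted p = 8.24e-06) with SE, and 0.26 (standard error 0.073, adjusted p = 0.035) with PE, and no library of these groups overlapped with IFN-γ alone. The log2 fold change between PE and PE + IFN-γ was -0.92 (standard error 0.0836, adjusted p = 1.23e-08). The start window printed for it holds no run of 5 C or T letters.

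Rps27l, a paralog of Rps27 known as a target of p53, was low with LE or SE under IFN-γ. It measured 118, 139 and 139 CPM with IFN-γ and 90.3, 96.2 and 98.9 with LE + IFN-γ, without overlap (-0.46, standard error 0.0755, adjusted p = 6.67e-05). The decrease with SE + IFN-γ was -0.33 (standard error 0.0753, adjusted p = 0.00256), and with PE + IFN-γ it was not called (0.14, standard error 0.0747, adjusted p = 0.22). The interaction was -0.65 (standard error 0.132, adjusted p = 0.000425) for LE and -0.69 (standard error 0.132, adjusted p = 0.00066) for SE. Its partner Rps27 measured 940, 1114 and 1121 CPM and 908, 966 and 994 CPM in the same groups, which overlapped, and was not called (-0.13, standard error 0.0744, adjusted p = 0.149). Whether the difference between the paralogs passes a threshold was not tested.

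Rpl7l1, a paralog of Rpl7 found in assembling 60S subunits, fell with LE + IFN-γ (-0.30, standard error 0.0527, adjusted p = 0.000136) and with SE + IFN-γ (-0.21, standard error 0.0527, adjusted p = 0.00492). It measured 121, 127 and 125 CPM with IFN-γ, 95.2, 102 and 103 with LE + IFN-γ and 102, 110.2 and 104 with SE + IFN-γ, with both peptide groups below IFN-γ alone. The start window printed for it has no run of 5 either. Rpl22l1, whose level Rpl22 is known to hold down, measured 86.3, 76.9 and 78.3 CPM in PBS and 95.5, 92.7 and 84.4 with PE, with overlap, and rose there (0.26, standard error 0.0748, adjusted p = 0.0263), but with the length trend removed its value was -0.014 (adjusted p = 0.928).

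**Figure D3:**
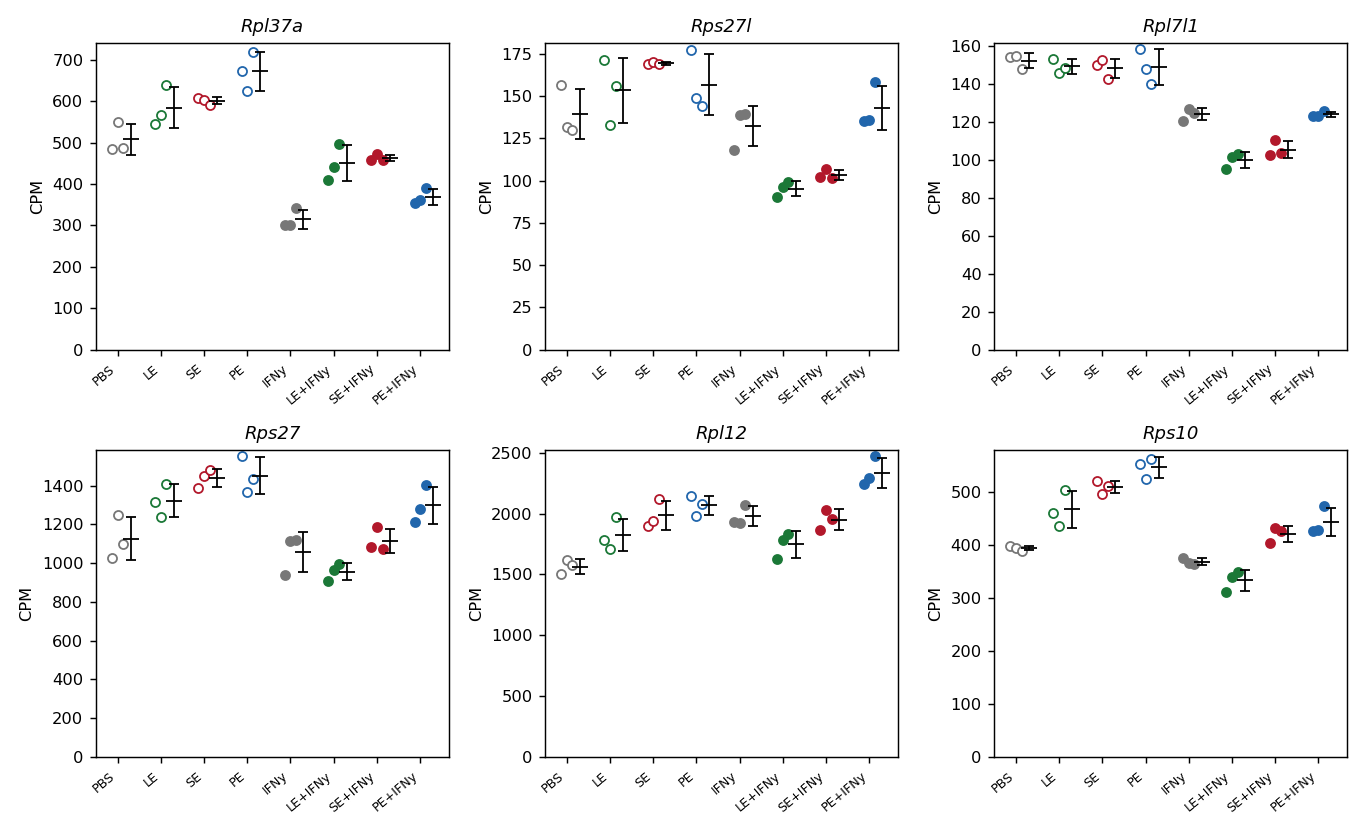
Level in CPM of Rpl37a, Rps27l, Rpl7l1, Rps27, Rpl12 and Rps10 in every letter-labelled library; points are libraries, open without and filled with IFN-γ, and bars are mean ± SD (n = 3). Rpl37a was lowest with IFN-γ and PE + IFN-γ, and Rps27l and Rpl7l1 were low with LE + IFN-γ and SE + IFN-γ.

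The remaining genes picked for their known roles were read in PE against PBS, and all but Rpl26 were called higher. Rplp0, which carries Rplp1 and Rplp2 in the stalk, rose with PE (0.32), and so did Rplp1 (0.43) and Rplp2 (0.52). Rpsa, also known as the laminin receptor, rose by a log2 fold change of 0.46, Rps6 by 0.39, Rps27a, made as a fusion with ubiquitin, by 0.45 and Rps3, of the mRNA entry, by 0.44. Rps19, altered in Diamond-Blackfan anaemia, rose by 0.41, Rps14, of the 40S platform, by 0.46 and Rpl10, which is loaded late onto the 60S subunit, by 0.38. Rpl26, beside the exit tunnel, was not called (0.083, standard error 0.0963, adjusted p = 0.571). With the length trend removed, Rpsa, Rps27a, Rps3 and Rps14 passed the threshold and the 3 stalk genes, Rps6, Rps19 and Rpl10 did not. Without the libraries numbered 1, none of the 83 genes was called in this comparison by edgeR.

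Transcript length moved with these results. The family's transcripts had a median length of 780 bases, against 2490 over all genes tested, and log2 fold changes fell with length across genes for PE against PBS (Spearman's rho -0.485 over 12065 genes, which share libraries and are not replicates). Among genes of at most 1000 bases, the median log2 fold change was 0.429 for 64 ribosomal protein genes and 0.238 for 1415 other genes in that comparison, and 92.2% and 26.9% were called higher. In LE + IFN-γ against LE the medians were -0.398 and -0.323, and 93.8% and 41.6% were called lower. For LE + IFN-γ against IFN-γ the medians were -0.0828 and -0.115, and 25% and 24.2% were called lower. The part of length in the calls was not tested beyond the removal of the trend.

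**Figure D4:**
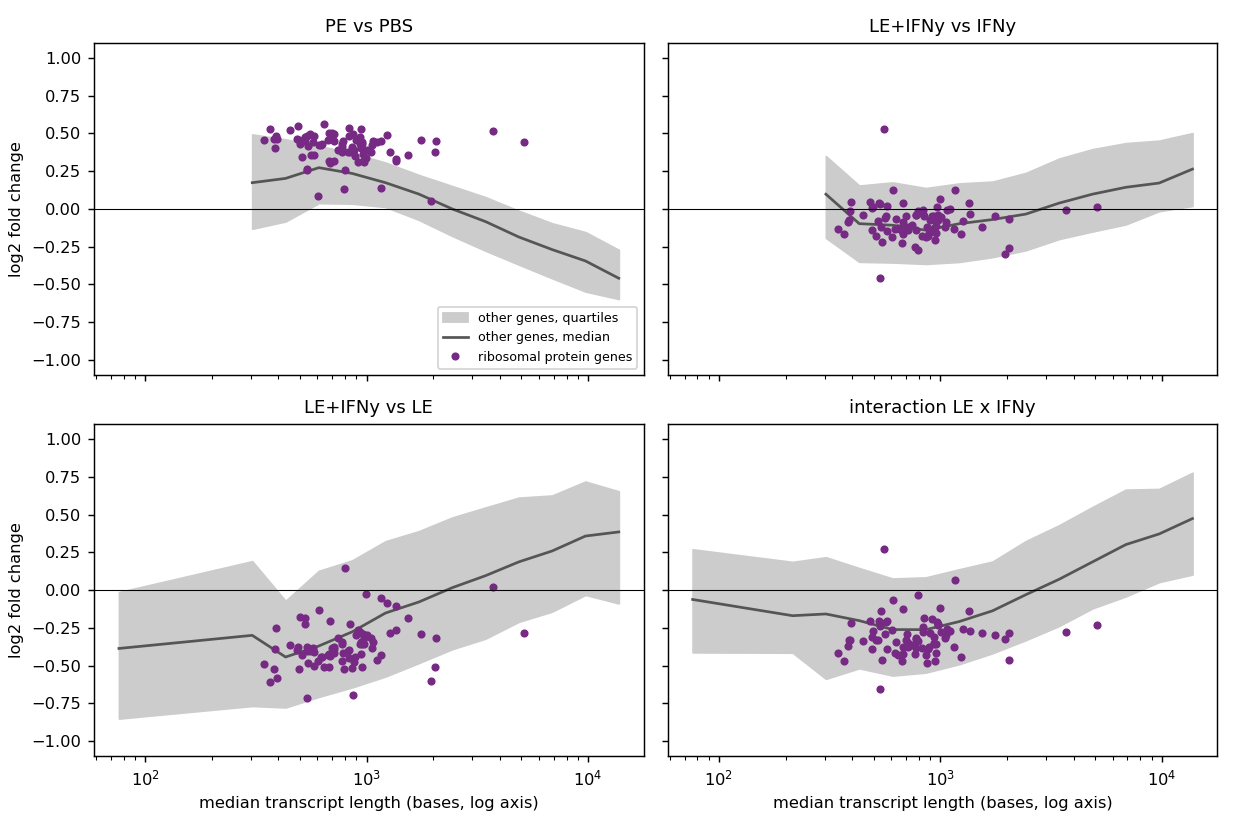
Log2 fold change of the ribosomal protein genes against transcript length (bases, log axis), in 4 comparisons, set against the median (line) and quartiles (band) of all other genes, with Rpl3l left out. The genes sat at short lengths, where the median of the other genes was 0.238 for PE against PBS.

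**Figure D5:**
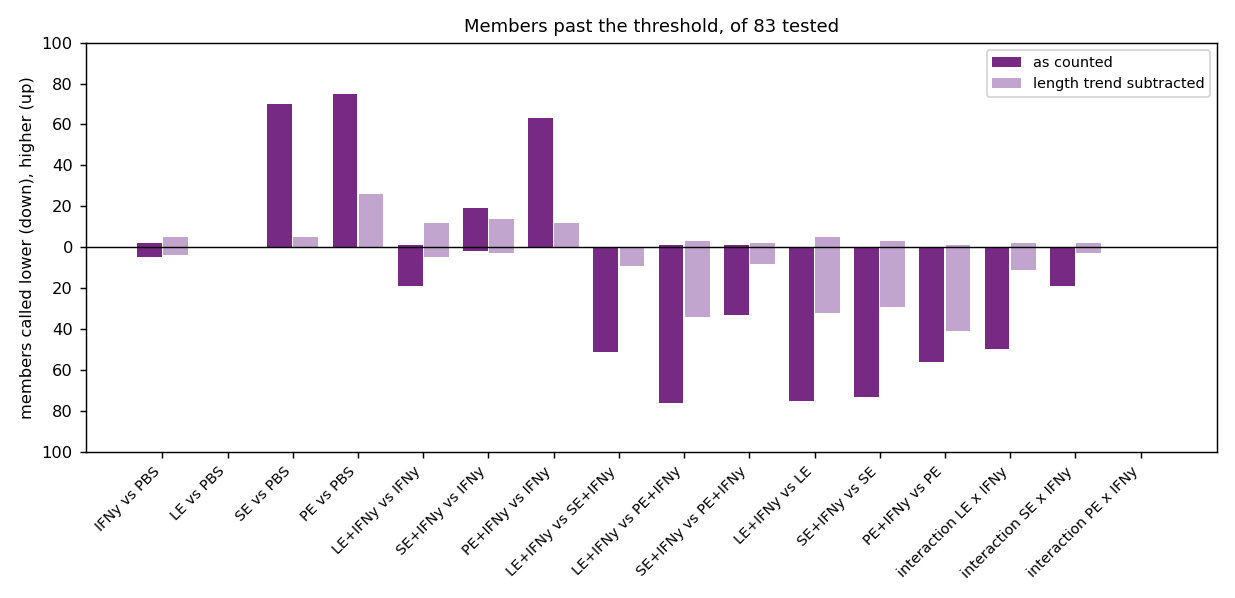
Number of ribosomal protein genes called higher (up) and lower (down) in each comparison, without and with the per-library length trend removed. With PE against PBS 75 genes were called higher without and 26 with the removal, and with LE + IFN-γ against LE 75 and 32 were called lower. With the removal, 432 of all 12420 genes tested were called higher in the former and 4161 of all 12947 lower in the latter.

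Other gene groups of the same machinery were set beside the family. Of 77 mitochondrial ribosomal protein genes tested, 52 rose and 0 fell with PE against PBS (median 0.32; background 9.98% and 9.98%), and 12 were called higher with the length trend removed (median 0.16, against 432 of 12420 over all genes). With LE + IFN-γ against IFN-γ 4 rose and 31 fell (median -0.13; background 25.7% and 24.8%), and 9 and 21 with the trend removed (3264 and 3215 of 12720 over all genes). With IFN-γ against PBS 19 rose and 16 fell, near the background of 20.2% and 19.5%, among them Mrpl13 (0.52, standard error 0.0816, adjusted p = 0.000375) and Mrps21 (-0.88, standard error 0.105, adjusted p = 5.27e-05). Of 22 elongation factor and other TOP genes, 9 rose and 0 fell with PE (4 rose with the trend removed), and with LE + IFN-γ against IFN-γ 5 rose and 1 fell, led by Eif4a2, an RNA helicase of initiation (0.96, standard error 0.0681, adjusted p = 5.07e-09).

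Of 62 ribosome biogenesis genes, 11 rose and 15 fell with LE + IFN-γ against IFN-γ, no more than the background of 25.7% and 24.8%, among them Noc3l (0.83, standard error 0.0677, adjusted p = 2.44e-08) and Ubtf, the RNA polymerase I factor (-0.55, standard error 0.0569, adjusted p = 4.17e-07). In the same comparison, of 11 chaperones and importers of ribosomal proteins, 5 rose and 2 fell, such as the importin Tnpo1 (0.84, standard error 0.0928, adjusted p = 8.48e-07) and Pdcd2, which escorts Rps2 (-0.59, standard error 0.0705, adjusted p = 2.24e-06). Of 6 GAIT-related genes, which include Rpl13a of the family, 2 rose and 1 fell, and the latter was Rpl13a. Of 5 ribosomal proteins outside the naming rule, such as Fau and Rack1, 0 rose and 1 fell (Rpl36al).

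Regulators of ribosomal protein output included Myc. It rose with IFN-γ and most with LE + IFN-γ, and its relation to the family's share was not tested. Its level was 3.56 CPM ± 1.94 in PBS, 11.6 ± 3.73 with IFN-γ, 64.2 ± 3.95 with LE + IFN-γ, 40.1 ± 3.13 with SE + IFN-γ and 11.1 ± 0.868 with PE + IFN-γ (mean ± SD, n = 3), and its log2 fold change was 1.72 (standard error 0.347, adjusted p = 0.00213) with IFN-γ against PBS and 2.50 (standard error 0.148, adjusted p = 6.45e-10) with LE + IFN-γ against IFN-γ. Of 17 such genes 6 rose and 4 fell with LE + IFN-γ against IFN-γ (4 and 4 with the length trend removed; background 25.7% and 24.8%), including Sp1 (0.56), Mdm2 (0.50), Maf1, a repressor of RNA polymerase III (-0.39), and Trp53 (-0.28). With IFN-γ against PBS 3 rose and 6 fell (background 20.2% and 19.5%), among them Larp1 (0.31) and Eif4ebp2, a brake on cap-dependent initiation (-0.80).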

How the data were processed

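RNA-seq was done on RAW264.7 cells with a stranded poly(A) kit and single-end reads of 100 bases. The authors deposited raw read counts per gene, made by featureCounts (Rsubread 1.5.0p3) from uniquely aligned reads on GENCODE M12 (GRCm38.p5); the aligner was not given in the sources used here, and the authors' own test was DESeq2 1.16.1 in R 3.4.1. Date-like gene names (26) and repeated symbols (2) stayed in the totals and fits and are not named. Groups came from the labels.

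Counts were tested with edgeR 4.0.16 (TMM, filterByExpr, quasi-likelihood) in R 4.3.3, each comparison in a fit of the groups its model needs, and a gene was called at an adjusted p under 0.05 over all genes tested. CPM were taken over all counts of a library. The comparisons of peptides with PBS used those 4 groups, IFN-γ against PBS its 2 groups, the models with IFN-γ 4 or 6 groups, and the interactions all 8. Alternatives were DESeq2 1.42.0 and its size factors, TMM without the family, no filter on low counts, a replicate block, a single fit of all groups, each replicate number left out, and offsets for a lowess trend (span 0.3) with GENCODE M21 transcript length. Tests were tried on simulated counts first. Genes named are those fixed for known roles, up to 5 called per direction and comparison with the largest change, all called past 1.5-fold, paralogs with their partners, and up to 3 per list and direction; Rpl24 and the 60S genes not called with SE were named after their values were seen, and some genes that the rule names are not reported here. The members and lists were chosen with earlier results of these data known. Sequences are from RefSeq (GRCm38.p6). Replicates differed by more than sampling noise (chi-square per degree of freedom 3.89 to 25.9).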

Additional observations from a re-analysis of the deposited data

Results flagged for a closer look

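Effects that differed between cells with and without IFN-γ were taken up because the interaction term of peptide and cytokine passed an adjusted p of 0.05 (edgeR). For LE these were 50 ribosomal protein genes, all lower, where 19.6% of all genes were lower, the largest being Rps27l (-0.655), Rpl27 (-0.471), Rpl38 (-0.47), Rpl35 (-0.467) and Rpl5 (-0.466) on the log2 scale. For SE these were 19 genes, all lower, where 10.3% of all genes were lower, the largest being Rps27l (-0.688), Rpl35 (-0.432), Rpl12 (-0.418), Rpl13a (-0.399) and Rps24 (-0.362). With the length trend removed 11 genes were lower for LE and 3 for SE, and leaving out 1 replicate number gave as few as 17 calls for LE (without the libraries numbered 3) and 1 for SE (without those numbered 1). Over all 13096 genes tested, removing the trend left 2457 lower for LE and 1289 for SE, larger shares than in the family. Negative values mean that the peptide's effect was lower in the presence of IFN-γ. Groups of 3 libraries are too small for a check of single outlying libraries.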

How the results depend on the processing

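Counts are genes called in both directions together. Counts over all genes with the length trend subtracted stand with each comparison above. With the length trend subtracted, they were 9 for IFN-γ against PBS (5 higher and 4 lower, so the balance of directions turned), 5 for SE and 26 for PE against PBS, 17 for LE + IFN-γ against IFN-γ (balance turned), 12 for PE + IFN-γ against IFN-γ, 9, 37 and 10 for LE against SE, LE against PE and SE against PE under IFN-γ, 37 and 32 for LE and SE with against without IFN-γ, and 13 and 5 for the LE and SE interactions. A trend fitted without the ribosomal protein genes, chosen after seeing the data, gave 9, 5, 30, 17, 14, 9, 37, 10, 37, 31, 13 and 4 in the same order. Without a filter on low counts LE against PBS had 21 calls, in 1 fit of all groups 1, and by DESeq2 3. The single fit gave 9, 12 and 20 calls for LE, SE and PE with IFN-γ against IFN-γ, 26 for LE against SE and 12 for SE against PE under IFN-γ.

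Leaving out 1 replicate number gave 3 to 5 calls for IFN-γ against PBS, 0 to 60 for SE and 0 to 75 for PE against PBS, 7 to 14, 6 to 22 and 0 to 54 for LE, SE and PE with IFN-γ against IFN-γ, 13 to 44 for LE against SE and 3 to 30 for SE against PE under IFN-γ, 18 to 60 for PE + IFN-γ against PE, and 17 to 44 and 1 to 13 for the LE and SE interactions. With a replicate block the calls were 11 for IFN-γ against PBS, 31 and 34 for LE and SE with IFN-γ against IFN-γ and 38 for the SE interaction. Same-numbered libraries also carry consecutive letters as labels (A to H, I to P and Q to X), and each run of letters holds every group. The labels do not say what the letters stand for. Of 84 correlations of their deviations, 39 were over 0.1 (median 0.0676), against 33 of 168 between different numbers (median -0.0437). Of 24 libraries, 15 correlated best with their own number. The main fits held no replicate block.

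The share of counts without the 10 most abundant other genes was 7.73% in PBS, 8.75% with LE, 9.34% with SE, 9.78% with PE, 7.54% with IFN-γ, 7.15% with LE + IFN-γ, 8.04% with SE + IFN-γ and 8.83% with PE + IFN-γ. With the length trend subtracted, single genes turned direction: Rpl22l1 for PE against PBS (-0.0141), Rplp1 for LE + IFN-γ against SE + IFN-γ (0.00253, and 0.00134 with the trend fitted without the family), Rplp2 (0.0383 and 0.0328) and Rps4x (0.02 and 0.0166) for LE + IFN-γ against PE + IFN-γ, Rplp2 (0.000253) and Rpl41 (0.123 and 0.117) for LE + IFN-γ against LE, and Rplp2 for SE + IFN-γ against SE (0.0336 and 0.025). The cause was not tested. Of 248 values for named genes, 242 kept direction and side of the threshold under DESeq2 size factors, 246 with TMM without the family, 114 with the length trend, 120, 203 and 149 without replicate 1, 2 and 3, and 244 by DESeq2. All 248 kept both with a replicate block. With 3 libraries a group, a gene that missed the threshold is not shown to be at the same level in both groups, and genes with few unique windows rest on part of their reads.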
